A study of Mus musculus with 6 samples.

Results

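The 33 potassium channel genes described here are all rows of the count table whose symbol starts with Kcn, without the noncoding RNA Kcnq1ot1, among 13024 genes in the table. They are 33 of the 93 protein-coding Kcn genes of the GENCODE mouse annotation, and the authors had limited the table to genes with a mean FPKM (fragments scaled by gene length and depth) over 1 in at least 1 of the groups. RNA-Seq was done on lenses of E14.5 mouse embryos of a mixed C57BL/6 and FVB background, with 3 pools of Gata3 CKO and 3 of control lenses, each of 10 lenses from 5 embryos. CKO embryos were Gata3 f/f with Pax6-Cre, in which Cre acts in lens and corneal precursors of the head ectoderm and in scattered cells of the retina. Control embryos carried no Cre, so effects of Cre and of Gata3 loss cannot be told apart. The control genotype is given as Gata3 f/wt in the study's results, as Gata3 f/f in its methods and as wild type in the sample labels.

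Libraries held 15157230 to 18811104 counts, of which 0.048% to 0.0565% fell on the potassium channel genes, 53511 counts in all. The Gata3 count was 156 to 386 in the control libraries and 894 to 1064 in those labelled CKO, against the direction of the label, and gene counts do not show the deleted exon. Directions below are therefore those of the libraries labelled CKO. In these, all 12 lens fibre markers and 15 of 16 crystallin genes had negative log2 fold changes. The summed levels of both lists overlapped between the groups. Control replicate 2 stood apart, with summed crystallin levels of 189400 CPM against 52090 to 93270 in the other libraries. CPM stands for counts scaled to a common library size with edgeR's TMM factors. Differences are the log2 fold change of CKO against control from edgeR's quasi-likelihood test over 12879 genes, with Benjamini-Hochberg adjusted p-values. The libraries are bulk tissue, so fewer cells of a type and less RNA per cell cannot be told apart.

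Potassium channels let potassium ions leave or enter cells down their electrochemical gradient and so set the resting membrane potential and end electrical signals. A channel is built from pore-forming subunits, which carry the ion selectivity filter, and often from auxiliary subunits that change its gating or its delivery to the membrane. In the lens, potassium channels work with the sodium-potassium pump to hold the membrane potential and to drive the circulation of ions and water through a tissue with no blood vessels inside it.

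Of the 33 genes, 25 encode pore-forming subunits and 8 encode auxiliary subunits. The coding sequence of the longest GENCODE transcript of each gene was searched for the 5 codons of the selectivity filter (Thr or Ser, then Val, Ile, Leu or Phe, then Gly, then Tyr, Phe or Leu, then Gly). All 25 pore-forming genes held these codons and 0 of the 8 auxiliary genes did. The stretch is shown for Kcnj6, Kcnd3 and Kcnk5, pore-forming genes whose control and CKO values did not overlap, and for the pores of the ATP-sensitive channels, since it is what makes these genes a class. Each run is 27 bases of coding strand, with the 5 filter codons in capitals and 6 bases on either side.
Kcnj6: gaaaccACCATCGGTTATGGCtaccgg
Kcnd3: atgactACACTGGGATATGGAgacatg
Kcnk5, first pore: atcaccACCATCGGTTATGGCaatgtg
Kcnk5, second pore: atctccACCATTGGCTTTGGGgacttt
Kcnj11: caggtgACCATTGGTTTCGGCgggcgc
Kcnj8: caagtgACCATTGGGTTTGGAgggaga

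On GRCm38, the assembly of mm10, the Kcnj6 stretch lies in exon 3 of its transcript on the reverse strand (chr16:94832771-94832797). Kcnj11 holds it in exon 1 (chr7:46099490-46099516) and Kcnj8 in exon 3 (chr6:142566442-142566468), both on the reverse strand. The Kcnd3 stretch is split by an intron, as is that of the first Kcnk5 pore. Over the 28 filters found, 18 had a Tyr codon between the Gly codons, 9 had a Phe codon, as in Kcnj11 and Kcnj8, and 1, in Kcnk1, had a Leu codon. In 3 tandem pore genes, Kcnk2, Kcnk5 and Kcnk10, both pores held a match. The tandem pore gene Kcnk1 held only 1 match, at codons 225 to 229 of 336, so the search did not show the filter of its other pore.

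The potassium channel genes were weakly expressed, with mean levels over the 6 libraries from 1.48 CPM for Kcne3 to 71.4 CPM for Kcnd3. Their median was 8.5 CPM, against 35.3 CPM over all genes tested, and 7 of the 33 exceeded 20 CPM while 20 were under 10 CPM. Per kilobase of exon the inward rectifier gene Kcnj12 was highest, at 25.1 CPM per kilobase, followed by the tandem pore gene Kcnk1 at 17.3 and by Kcnh2, which encodes the ERG channel of cardiac repolarization, at 13.8. Kcnd3, highest by CPM, stood at 7.44 CPM per kilobase, and Kcnj6 was lowest at 0.243. Lengths were those of all GENCODE exons of a gene joined, while the counts were per RefSeq gene. The levels per kilobase and their order depend on these lengths and are not the authors' FPKM. Kcnj6, at 0.440 in control and 0.046 in CKO, lay under the mean FPKM of 1 that the authors required. Summed over the 33 genes, the level was 526.6 ± 41.8 CPM (SD, n = 3) in control and 524.3 ± 31.8 CPM (SD, n = 3) in CKO, a difference smaller than the spread between pools.

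The comparison of CKO with control asked which potassium channel genes differed in lenses in which Gata3 was targeted. No Kcn gene passed an adjusted p-value of 0.05 in edgeR (0 of 33), nor did any of the 12879 genes tested (0%), and the smallest adjusted p-value among the 33 was 0.727, for Kcnd3. An unadjusted p-value under 0.05 was found for 5 of the 33 (15.2%), against 3.55% of all genes tested. These were Kcnj6 and Kcnd3, lower in CKO (2.24% of all genes tested), and 3 genes higher in CKO (1.3% of all genes tested), Kcnab2 among them. DESeq2's Wald test, run as an alternative on the same counts, gave an adjusted p-value under 0.05 for 1 of the 33, Kcnj6, against 0.66% of all genes tested. In 6 of the 33 (18.2%), these 5 and Kcnk5, the 3 control and the 3 CKO values did not overlap, against 8.36% of all genes tested. Of these 6, 3 were lower and 3 higher in CKO, against 4.69% and 3.67% of all genes tested. These shares are descriptions, and no test was made of whether potassium channel genes as a group differ from other genes.

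The median log2 fold change of the 33 genes was -0.017, against 0.00188 over all genes tested, with 18 genes lower and 15 higher. More than 1 on the log2 scale separated the groups in 2 of the 33, Kcnj6 among them, and 20 of the 33 differed by less than 0.25. The estimates were less precise than for most genes, with a median standard error of 0.309 against 0.134 over all genes tested, so differences of this size or smaller were not detectable for many members.

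**Figure D1:**
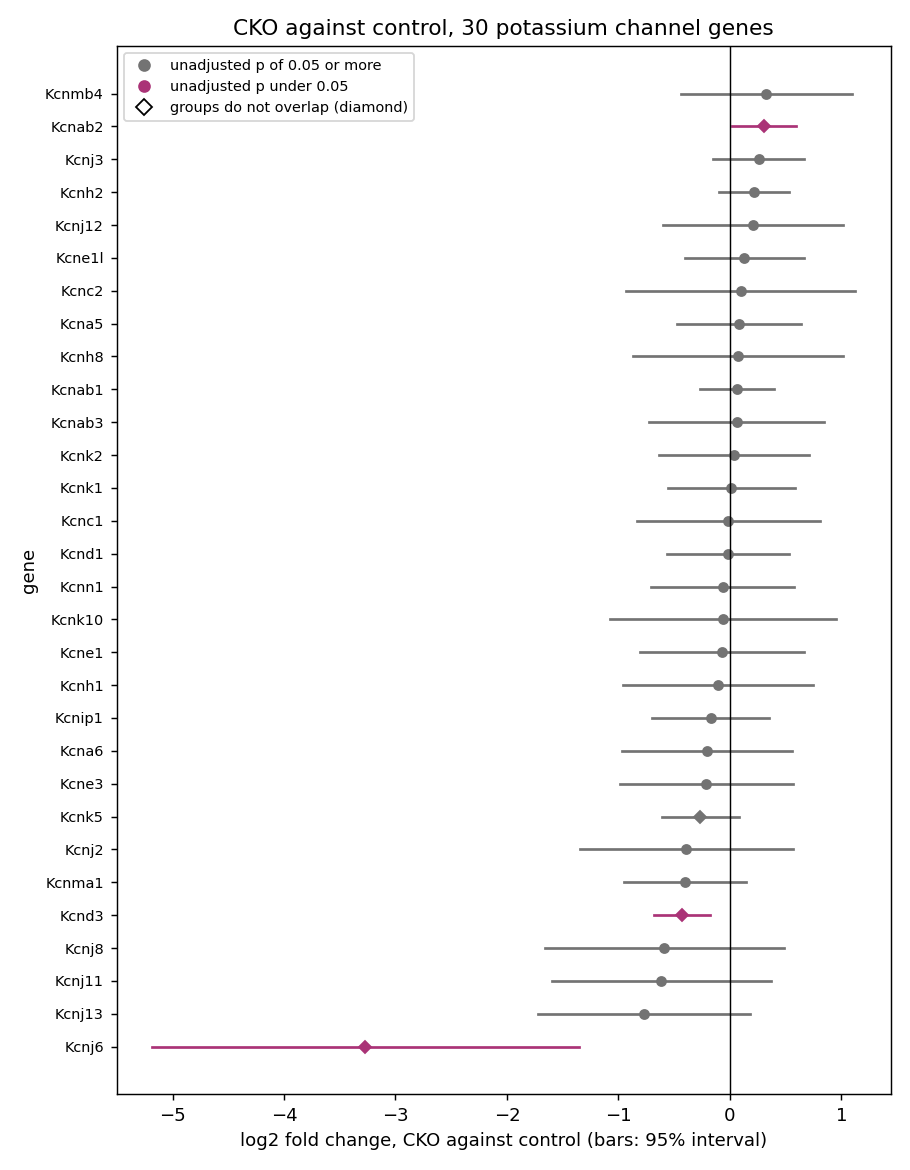
Log2 fold change of CKO against control (x axis) for 30 of the 33 potassium channel genes (y axis), with the 95% interval from edgeR's quasi-likelihood fit as bars, an unadjusted p-value under 0.05 in purple, and diamonds where the 3 control and 3 CKO values do not overlap. Kcnj6 lies at -3.27, and the intervals of 27 of the 30 genes include 0.

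Kcnj6 encodes GIRK2, an inward rectifier that G proteins open downstream of receptors such as muscarinic and opioid receptors, and it lies on chromosome 16 (94748636–94997701). Its counts in control replicates 1, 2 and 3 were 37, 86 and 30, and those in CKO replicates 1, 2 and 3 were 10, 7 and 1. Normalized levels were 2.34, 6.06 and 1.68 CPM in control and 0.648, 0.356 and 0.0520 CPM in CKO. Every CKO library was below every control library, and control replicate 2 was well above the other controls. Kcnj6 met the filter of 10 counts in 3 libraries through its control libraries, as CKO replicates 2 and 3 fell below it. The authors' FPKM filter could also be met in 1 group alone. A gene this low in CKO could thus enter the comparison only by being higher in control. In edgeR's fit the log2 fold change of Kcnj6 came to -3.27 (standard error 0.80, 95% interval -5.19 to -1.35, adjusted p = 0.747). DESeq2 gave the same log2 fold change with an adjusted p = 0.0149, and over the alternatives run its adjusted p ranged from 0.0149 to 1. Leaving out any 1 library gave -3.98 to -2.53. The counts in the CKO libraries were so low that the size of the difference is uncertain, and the gene was not tested under a filter of 50 counts. Kcnj6 is also overlapped at its 3′ end by an antisense gene, and the strand option of the counting is not stated in the sources used here.

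Its partner Kcnj3, which encodes GIRK1 and forms mixed channels with GIRK2, was not lower. Kcnj3 had 7.54, 6.55 and 8.71 CPM in control and 9.27, 9.61 and 8.43 CPM in CKO, with overlapping groups and a log2 fold change of 0.26 (95% interval -0.15 to 0.67). Among the 7 inward rectifier genes, 5 had negative and 2 positive log2 fold changes, with Kcnj6 alone at an unadjusted p-value under 0.05.

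Kcnj12 and Kcnj2 encode strong inward rectifiers of the Kir2 type, which hold the resting potential of muscle and other cells. Kcnj12 had 51.0, 100.9 and 40.3 CPM in control and 86.7, 69.3 and 66.0 CPM in CKO. The CKO values lay within the control range, and the log2 fold change of 0.21 (standard error 0.34) became 0.71 without control replicate 2 and -0.0374 without control replicate 3. Kcnj2 was lower than Kcnj12, at 5.51, 9.58 and 3.30 CPM in control and 3.63, 5.59 and 4.68 CPM in CKO. For Kcnj2 too the CKO values lay within the control range. Kcnj13, which encodes the Kir7.1 channel known from retinal pigment epithelium, had 3.17, 6.06 and 2.74 CPM in control and 1.88, 3.20 and 1.87 CPM in CKO, with overlapping groups (95% interval of the log2 fold change -1.72 to 0.18). Summed levels of the 5 pigment cell markers were 53.3 to 308.9 CPM in control and 60.6 to 312.7 CPM in CKO, highest in control replicate 1 and CKO replicate 2, and their part in the Kcnj13 values was not tested. Kcnj13 lies wholly within the protein-coding gene Gigyf2 on the opposite strand, so its counts are uncertain without the strand option.

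**Figure D2:**
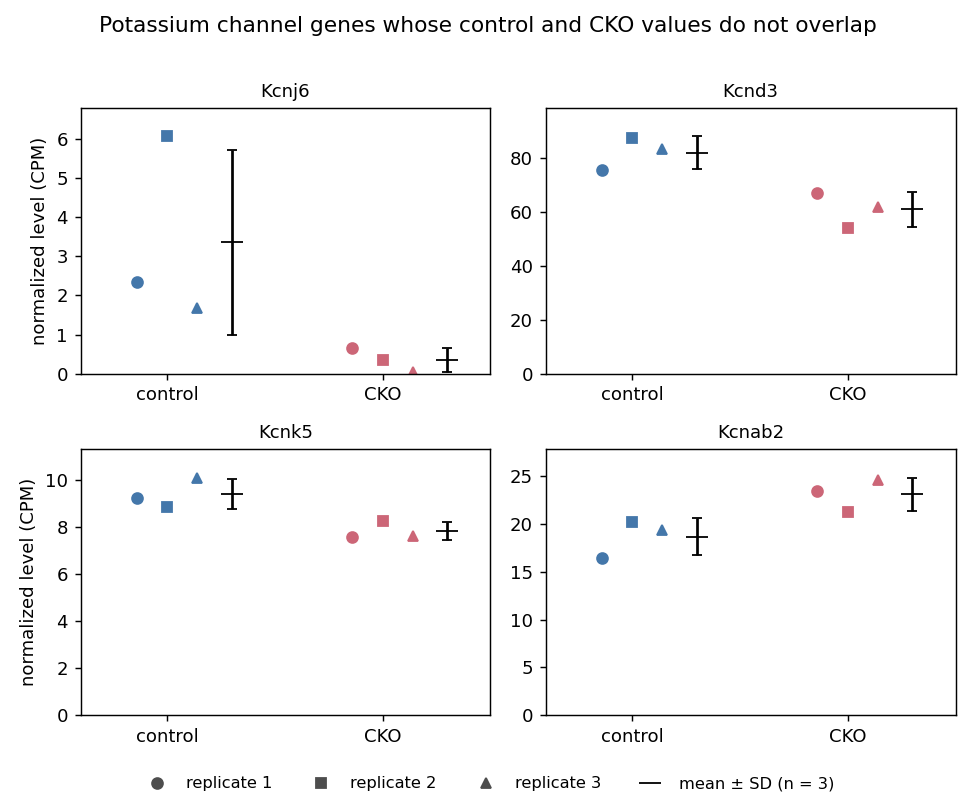
Normalized level in CPM (y axis, from 0) of Kcnj6, Kcnd3, Kcnk5 and Kcnab2, whose control (blue) and CKO (red) values do not overlap, with circles, squares and triangles for replicates 1, 2 and 3 and black bars for the mean ± SD (n = 3). The groups nearly meet for Kcnk5, at 8.88 CPM in control replicate 2 and 8.29 CPM in CKO replicate 2, and for Kcnab2, at 20.2 and 21.2 CPM in the same replicates.

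Kcnd3 encodes a voltage-gated channel of the Kv4 type that carries a fast transient outward current in heart and neurons, and it lies on chromosome 3 (105452330–105674002). It had 75.3, 87.2 and 83.1 CPM in control and 67.0, 54.0 and 61.6 CPM in CKO, all CKO values below all control values. The group means were 81.9 ± 6.01 and 60.8 ± 6.54 CPM (SD, n = 3 each). The Kcnd3 log2 fold change in edgeR was -0.43 (standard error 0.10, 95% interval -0.68 to -0.18, adjusted p = 0.727). Fits lacking 1 library gave -0.50 to -0.35, and the adjusted p of Kcnd3 over the alternatives was 0.113 to 1. An antisense gene, Kcnd3os, overlaps it.

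Kcnd1, the other Kv4 gene measured, was lower in level, at 5.58, 4.16 and 5.70 CPM in control and 4.08, 5.70 and 5.46 CPM in CKO. Its groups overlapped almost fully and its log2 fold change was -0.017 (95% interval -0.57 to 0.53). Kcnip1 encodes a calcium-binding protein that brings Kv4 channels to the membrane. It had 3.67, 3.24 and 3.41 CPM in control and 2.66, 3.05 and 3.43 CPM in CKO, with overlapping groups. Protein-coding genes overlap Kcnip1 on both strands, so its counts are uncertain too. Dpp6, a further Kv4 partner, had 42.2, 20.7 and 57.8 CPM in control and 47.9, 42.7 and 47.4 CPM in CKO, with CKO values inside the control range.

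The Kv3 channels let neurons fire at high rates. Kcnc1 had 7.54, 6.13 and 13.5 CPM in control and 10.2, 6.41 and 10.5 CPM in CKO. Kcnc2 had 11.3, 5.43 and 20.1 CPM in control and 13.2, 11.8 and 14.52 CPM in CKO. For both, the CKO values lay within a wide control range with control replicate 2 at the bottom and control replicate 3 at the top.

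Kcna5 and Kcna6 are genes of Kv1 channels. Kcna5, which carries a fast delayed rectifier current in the atrium of the heart, had 4.12, 3.88 and 3.52 CPM in control and 3.37, 3.81 and 5.00 CPM in CKO. Kcna6 had 9.57, 4.58 and 9.38 CPM in control and 5.32, 8.14 and 6.92 CPM in CKO. In neither gene were the groups apart.

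Of the channels of the EAG, ERG and ELK type, Kcnh2 had 53.2, 73.2 and 59.7 CPM in control and 75.7, 64.9 and 75.4 CPM in CKO. Its groups overlapped because control replicate 2 exceeded CKO replicate 2, and its log2 fold change was 0.22 (95% interval -0.10 to 0.53), or 0.36 without control replicate 2. Kcnh1, the EAG channel gene, had 12.04, 23.1 and 8.83 CPM in control and 13.4, 15.7 and 11.7 CPM in CKO. Kcnh8, the ELK channel gene, had 5.01, 2.26 and 5.98 CPM in control and 4.34, 3.51 and 6.14 CPM in CKO. Neither gene separated the groups. Kcnh1 overlaps the protein-coding gene Hhat on the opposite strand at its 3′ end. In all, 19 of the 33 genes are overlapped by another annotated gene, 6 of them on the same strand.

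Tandem pore (K2P) channels give background currents that keep cells near the potassium equilibrium. Kcnk1, the most abundant of the 4 K2P genes, had 41.6, 24.9 and 49.3 CPM in control and 37.0, 38.1 and 41.8 CPM in CKO, with a log2 fold change of 0.0136 (95% interval -0.55 to 0.58). Kcnk5 encodes TASK-2, a channel that opens at alkaline pH outside the cell, and lies on chromosome 14 (20140057–20181809). It had 9.25, 8.88 and 10.1 CPM in control and 7.59, 8.29 and 7.65 CPM in CKO. The Kcnk5 groups did not overlap, but the log2 fold change of -0.26 had a 95% interval of -0.61 to 0.09 that included 0. Kcnk2 and Kcnk10 encode the mechanosensitive TREK channels. Kcnk2 had 3.95 to 6.65 CPM in control and 3.89 to 6.19 CPM in CKO, and Kcnk10 had 3.88 to 12.8 CPM in control and 6.10 to 9.08 CPM in CKO, with overlapping groups in both.

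Calcium-activated channels link the membrane potential to the calcium level of the cell. Kcnma1, the pore of the large-conductance BK channel, had 22.5, 35.7 and 19.8 CPM in control and 21.0, 20.6 and 17.4 CPM in CKO. Its log2 fold change of -0.40 (95% interval -0.95 to 0.15) was -0.0949 without control replicate 2. Kcnmb4, which slows the gating of BK channels, had 7.67, 4.30 and 10.9 CPM in control and 10.2, 9.92 and 8.74 CPM in CKO. Kcnn1, a small-conductance channel gene, had 10.6, 8.53 and 16.5 CPM in control and 11.0, 9.66 and 13.5 CPM in CKO. In none of these 3 genes were the groups apart.

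Cytoplasmic beta subunits bind Kv1 channels and help to bring them to the membrane. Kcnab2, on chromosome 4 (152390742–152477871), had 16.5, 20.2 and 19.4 CPM in control and 23.4, 21.2 and 24.6 CPM in CKO, with every CKO library above every control library. The log2 fold change of Kcnab2 came to 0.31 (standard error 0.12, 95% interval 0.02 to 0.59), and the unadjusted p-value stayed under 0.05 in only 2 of the 6 fits that left out a library. Kcnab2 overlaps the protein-coding gene Nphp4, which lies on the opposite strand, at its 5′ end, so its counts are uncertain without the strand option. Kcnab1 had 11.1 to 11.7 CPM in control and 10.5 to 13.2 CPM in CKO, and Kcnab3 had 1.69 to 3.74 and 2.90 to 3.33 CPM.

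The KCNE proteins are small membrane proteins that join voltage-gated pores. Kcne1, part of the channel of a slow current in heart and inner ear, had 7.16, 13.04 and 5.92 CPM in control and 8.43, 7.32 and 9.11 CPM in CKO. Kcne1l had 7.86, 5.50 and 9.44 CPM in control and 7.72, 8.49 and 8.79 CPM in CKO. Kcne3 had 1.14, 2.11 and 1.51 CPM in control and 1.43, 1.27 and 1.40 CPM in CKO. The groups overlapped in all 3 genes. In Kcne1 the sign of the log2 fold change, -0.0674, turned to 0.35 without control replicate 2.

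ATP-sensitive channels couple metabolism to the membrane potential and are built from a Kir6 pore (Kcnj11 or Kcnj8) and a sulfonylurea receptor (Abcc8 or Abcc9), with pore and receptor genes next to each other in the genome. Kcnj11 lies 3758 bases from Abcc8 on chromosome 7, and Kcnj8 lies 16247 bases from Abcc9 on chromosome 6. Kcnj11 had 14.6, 32.0 and 10.2 CPM in control and 13.7, 11.95 and 11.3 CPM in CKO. Abcc8 had 31.2, 58.0 and 20.8 CPM in control and 31.0, 22.2 and 19.9 CPM in CKO. Both were highest in control replicate 2, then in control replicate 1, CKO replicate 1 and CKO replicate 2.

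Kcnj8 had 2.53, 5.43 and 2.40 CPM in control and 2.40, 3.10 and 1.35 CPM in CKO. Abcc9 had 23.6, 34.0 and 17.4 CPM in control and 14.4, 25.4 and 12.5 CPM in CKO. Kcnj8 and Abcc9 ranked the 6 libraries in the same order, led by control replicate 2 and CKO replicate 2. Kcnj8 and Abcc9 are known from pericytes of small vessels, and the summed level of the 5 pericyte markers (Abcc9 among them) was 207.8 to 280.5 CPM in control and 199.7 to 251.0 CPM in CKO. Its part in the Kcnj8 values was not tested. In all 4 genes the control and CKO values overlapped. The log2 fold change of Kcnj11, -0.61 (95% interval -1.59 to 0.37), was 0.0055 without control replicate 2.

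**Figure D3:**
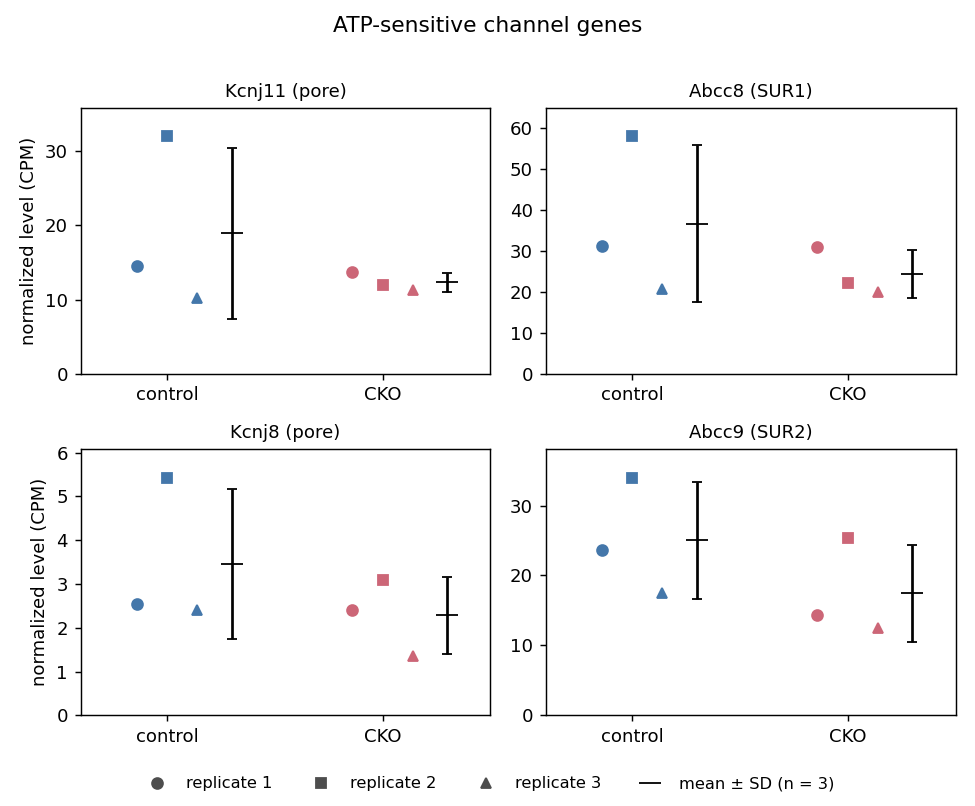
Normalized level in CPM (y axis, from 0) of the ATP-sensitive channel pores Kcnj11 and Kcnj8 (left) and their receptors Abcc8 and Abcc9 (right) in control (blue) and CKO (red) libraries, with circles, squares and triangles for replicates 1, 2 and 3 and black bars for the mean ± SD (n = 3). In all 4 panels the highest point is control replicate 2, with 32.0 CPM for Kcnj11 and 58.0 CPM for Abcc8.

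The control pools differed from each other more than the CKO pools did. The SD over the mean of control had a median of 36% over the 33 genes and ranged from 2.67% for Kcnab1 to 70.3% for Kcnj6. In CKO the median was 12.7%, and over all genes tested the medians were 13% and 7.51%. The control SD was the larger in 27 of the 33 genes (81.8%), against 70.7% of all genes tested. Control replicate 2 held the highest value of 11 genes and the lowest value of 12, or 33.3% and 36.4%, each against 31.6% of all genes tested.

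The genes highest in control replicate 2 included 6 of the 7 inward rectifiers (Kcnj2, Kcnj6, Kcnj8, Kcnj11, Kcnj12 and Kcnj13), with Kcnd3, Kcne1, Kcne3, Kcnh1 and Kcnma1. They were 1.1 to 3.02 times as high there as in the mean of control replicates 1 and 3, with the top value for Kcnj6. In the same libraries the 12 lens fibre markers, summed, were 2.44 times as high in control replicate 2, at 22630 CPM against 10840 and 7670. By the same ratio, blood markers stood at 2.89, crystallins at 2.41, muscle at 1.82 and macrophages at 1.5. Markers of retina and neurons (0.464), mesenchyme (0.394), pigment cells (0.372) and peripheral glia (0.787) were lower there. The other lists ranged from 1.09 for vessels to 1.31 for surface ectoderm. In CKO the fibre marker sum was 7152 to 10640 CPM, and all 12 markers had negative log2 fold changes, 8 with an unadjusted p-value under 0.05. Within each group the fibre marker sum and Kcnj6 ranked the replicates in the same order, with control replicate 2 and CKO replicate 1 highest. That order was not particular to Kcnj6, as Kcnj11, Kcnj12 and Kcnma1, whose groups overlapped, had it too. Between the groups the fibre marker sum overlapped and Kcnj6 did not, as CKO replicates 1 and 2 exceeded control replicate 3 in that sum. The part of these marker sums in the Kcnj6 difference was not tested.

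The 12 genes lowest in control replicate 2, among them Kcna6, Kcnab3, Kcnc1, Kcnc2, Kcne1l, Kcnh8, Kcnj3, Kcnk1, Kcnk10, Kcnmb4 and Kcnn1, were there at 0.346 to 0.806 times the mean of control replicates 1 and 3. Of these 12, 9 were also highest in control replicate 3, Kcnc2 and Kcnk10 included. The summed level of 14 markers of retina and neurons was 1824, 1045 and 2683 CPM in control replicates 1, 2 and 3 and 2009, 1782 and 2417 CPM in CKO, so it too was lowest in control replicate 2 and highest in control replicate 3. All 14 markers were counted in every library. Their part in the levels of these channel genes was not tested. Mesenchyme markers, 11 of 12 in the table, summed to 2267, 497.8 and 258.0 CPM in control and 255.4, 4095 and 530.6 CPM in CKO, highest in CKO replicate 2 and control replicate 1.

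**Figure D4:**
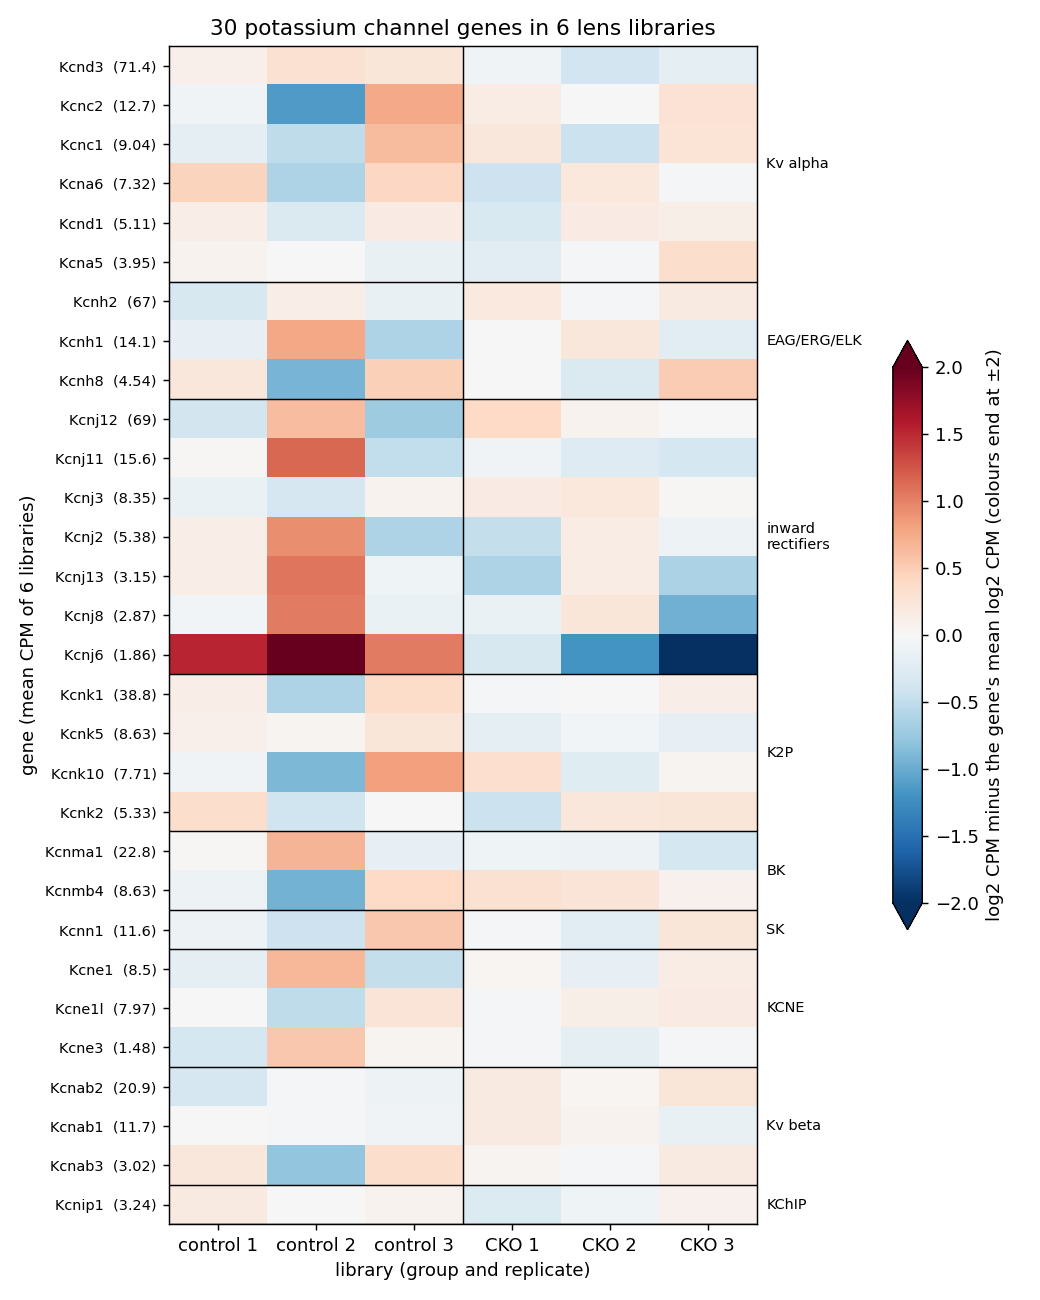
Log2 CPM of 30 of the 33 potassium channel genes minus each gene's own mean over the 6 libraries (colour, ending at ±2), with libraries as columns and genes as rows grouped by subunit family, and the mean CPM in brackets. Control replicate 2 is red in 6 of the 7 inward rectifiers and blue in Kcnc2, Kcnk10 and Kcnmb4, while Kcnj6 is red in all control and blue in all CKO libraries.

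Other genes of potassium transport were taken from a list of 41 pumps, cotransporters, hyperpolarization-activated channels and channel partners, of which 27 were in the table and tested. None of the 27 passed the adjusted threshold in edgeR (0 of 27), the median log2 fold change was 0.0201, and 1 (3.7%) had an unadjusted p-value under 0.05, against 3.55% of all genes tested. That gene was Slc12a9, a member of the cation-chloride cotransporter family, with 21.0, 19.6 and 19.2 CPM in control and 26.4, 28.3 and 22.0 CPM in CKO. Its groups did not overlap, and its log2 fold change was 0.36 (standard error 0.12). In 2 of the 27 (7.41%) the groups did not overlap, against 8.36% of all genes tested.

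Atp1b3, a beta subunit of the sodium-potassium pump, had 186.0, 261.5 and 160.0 CPM in control and 152.4, 148.5 and 158.9 CPM in CKO, with groups that did not overlap but a 95% interval of -0.82 to 0.02 on the log2 scale. Slc12a2, the sodium-potassium-chloride cotransporter, had 92.4 ± 1.18 and 93.0 ± 7.58 CPM (SD, n = 3 each), a log2 fold change of 0.0090 (95% interval -0.18 to 0.20). Fxyd6, a regulator of the pump, had 57.8 CPM in control and 60.8 CPM in CKO on average.

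RefSeq promoters (GRCm38.p6, 250 bases before to 50 after a start site) were at hand for 26 of the 33 genes and were searched on both strands for GATA with A or T directly before it and A or G directly after it, such as AGATAA. A match was found in 8 of the 42 promoters of these genes (19%), against 29.8% of all 32851 promoters of this length and 18% of the 12836 promoters of genes tested here. Counted by gene, 8 of the 26 (30.8%) held a match in any promoter, against 33% of all 27025 genes with a promoter and 21% of the 10006 of them tested here. Of the 6 genes whose groups did not overlap, 4 had a promoter there, and Kcnj6 and Kcnab2 held a match. These are shown on the strand of the gene, with the matching letters in capitals, and the Kcnj6 match reads TGATAA on the other strand.
Kcnj6: cccagagtggTTATCAgggttgtatc
Kcnab2: gagttccaagTGATAGagtgtccatc
The Kcnj6 run lies at chr16:94856822-94856847 and begins its match 147 bases before a start site, and the Kcnab2 run lies at chr4:152449030-152449055, with its match 190 bases before one. Both genes lie on the reverse strand with 5′ ends at 94997701 (Kcnj6) and 152477871 (Kcnab2), so both start sites are internal to the annotated gene. Whether these start sites are used in lens was not analysed. A match of letters is no evidence of binding, and binding of Gata3 at these genes was not analysed here.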

How the data were processed

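Lens RNA of 6 pools was sequenced from stranded poly(A) libraries, per the labels. The authors aligned the paired-end reads to mm10 with TopHat2 2.0.13, counted fragments per RefSeq gene with HTSeq 0.6.1, and deposited these raw counts, keeping genes whose mean FPKM exceeded 1 in at least 1 group. The strand and overlap options of the counting are not given in the sources used here. CKO replicate numbers are those of the titles (KO1, KO2 and KO3), whose count columns are named CKO2, CKO3 and CKO4 in that order. All values were whole.

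A robust quasi-likelihood model was fitted in R 4.3.3 with edgeR 4.0.16 and TMM factors to genes that reached 10 counts in 3 libraries or more, which kept 12879 genes and all 33 Kcn genes, with Benjamini-Hochberg adjustment at 0.05 over all genes tested. Standard errors are the log2 fold change over the root of the F statistic. DESeq2 1.42.0 and limma 3.58.1 (voom) were alternatives. The tests were tried on simulated data. Exon lengths and positions came from GENCODE M21, and tables and plots from Python 3.11.15, pandas 2.3.3 and matplotlib 3.10.9. The members, gene lists and tests were chosen with earlier results of these data known. Genes named with a log2 fold change are those with an unadjusted p-value under 0.05, a DESeq2 call or groups without overlap, the 8 highest by CPM and by CPM per kilobase, and the highest of each family. Some genes are not reported here, in the text or plots, which leaves 13 of these, while counts over the 33 include them. The other members were named so that each is accounted for, and Kcnj3, Kcnj13, Kcnd1, Atp1b3, Abcc8, Abcc9 and Dpp6 were given further values after these were seen. Potassium transport partners named are those reported here among the 5 highest by CPM and those with an unadjusted p-value under 0.05. Each pool is a separate set of embryos. No column of the table was left unused.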

Additional observations from a re-analysis of the deposited data

How the results depend on the processing

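The alternatives were DESeq2, voom, a fit without robust estimation, other scalings, library sizes computed without crystallins, other filters, a replicate block and each library left out. Of 207 values of 13 named genes, 193 kept their direction and their side of the adjusted threshold, 1 passed it (Kcnj6 in DESeq2, 1 gene against 0) and 13 turned direction. Turned values without a library left out were those of Kcne1 (0.0418 in voom, 0.0701 with library size alone, 0.0055 with the replicate block) and Kcnn1 (0.0172 with library size alone). Over the fits lacking 1 library, log2 fold changes ran from -0.283 to 0.352 for Kcne1, -0.0413 to 0.319 for Kcne1l, -0.916 to 0.0055 for Kcnj11, -0.0374 to 0.706 for Kcnj12, -0.209 to 0.229 for Kcnk1 and -0.241 to 0.252 for Kcnn1. All 12 of these extremes came without control replicate 2 or 3. The number of genes lower at an unadjusted p-value under 0.05 was 2, or 1 with a filter of 50 counts (Kcnj6 was then not tested), and 2 to 5 with a library left out, with 5 without control replicate 3. The number higher was 3, and 1 to 5 with a library left out, with 5 without control replicate 2 and 1 without CKO replicate 1. The median log2 fold change of the 33 genes was 0.0509 in voom, 0.0701 with library size alone (which moved the median of all genes to 0.103), 0.0415 with the replicate block and -0.0978 to 0.0451 with a library left out. Transport partners at an unadjusted p-value under 0.05 were 2 in DESeq2, with library size alone and with the replicate block, and 0 to 3 with a library left out. In edgeR 0 of the 33 genes passed the adjusted threshold with a library left out or with the replicate block, while of all genes tested 8 passed it without control replicate 2 and 1 without control replicate 3. Deviations of equal replicate numbers correlated at -0.483, 0.0906 and 0.432, and those of unequal numbers at -0.478 to 0.554. With so few pools per group, these correlations cannot decide whether the replicate numbers pair the pools. The block gave 5 genes at an unadjusted p-value under 0.05, as without it, with Kcnj13 in place of Kcnab2. Causes of these changes were not tested. Counts of 1 to 10 in CKO limit the precision of Kcnj6.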
